A study of Mus musculus with 24 samples.

Results

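A set of 8 genes that encode zinc and manganese transporters was examined in mouse erythroleukaemic cells: 4 exporters and organelle loaders of the Slc30 (ZnT) family, Slc30a10, Slc30a1, Slc30a5 and Slc30a7, and 4 importers of the Slc39 (ZIP) family, Slc39a8, Slc39a14, Slc39a1 and Slc39a10. Their members in the data are all peaks that lie in the annotated body or within 5 kb of either end of a gene. These were 134 of the 272993 peaks in 4 deposited lists, and the 8 genes are 8 of 21883 protein-coding genes. The peaks were chosen by their positions in these lists, and the genes with earlier results of the same lists in view, so the values below describe them and test nothing. Just inside the 5 kb limit lay an untreated H3K27ac peak of 503 bp, 3887 bp from Slc30a10, and just outside it an untreated H3K4me1 peak of 553 bp, 5039 bp from Slc39a1.

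The cells are bone marrow leukaemic cells of the erythroid lineage, TgSpi1 line #763, which overexpress the transcription factor SPI1 (PU.1) and were grown with erythropoietin. In the Dox_Treated group, cells received doxycycline for 48 h, which switches on a hairpin RNA that targets Spi1, and the Dox_Untreated group carries the same inducible hairpin without the drug. Both groups therefore share the Spi1 transgene, the hairpin construct and erythropoietin, and the labels name a single line. Among the 24 samples of the series no control with doxycycline but no hairpin is labelled, so drug and SPI1 loss cannot be told apart. Each H3K27ac list joins 2 replicates and each H3K4me1 list comes from replicate 1, so there was 1 list per mark and group, no replicate error and no test. Since the cultures were assayed in bulk, a change in some cells and a smaller change in all cells cannot be told apart either.

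Zinc and manganese cross membranes through carrier proteins. ZnT proteins move the metal out of the cytosol, across the cell surface or into the Golgi and vesicles, and ZIP proteins bring it into the cytosol. SLC30A10 is a cell-surface manganese exporter, and loss of it in humans and mice causes manganese overload. Erythroid precursors need zinc for GATA1 and other zinc finger factors, and in mouse erythroid cells GATA1 and haem are known to act on zinc transporter genes, among them Slc39a8 and Slc30a1. H3K27ac marks active promoters and enhancers, and H3K4me1 marks enhancers and promoter flanks whether active or not.

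The lists held 23341 treated and 28902 untreated H3K27ac peaks, covering 41.2 Mb and 41.5 Mb, and 101388 treated and 119362 untreated H3K4me1 peaks, covering 195.4 Mb and 184.0 Mb. Their read depth is unknown. Median widths were 1353 bp treated and 1003 bp untreated in H3K27ac, and 1153 bp and 903 bp in H3K4me1, so treated peaks were wider across the genome. At the transporter genes they were 1653 bp treated and 1253 bp untreated in H3K27ac, but 1253 bp and 1303 bp in H3K4me1. All 12 erythroid marker genes had H3K27ac in the treated list and 9 had it in the untreated list, where Hba-a1, Hba-a2 and Slc4a1 had none; Hba-a1 and Hba-a2 are near-identical copies whose reads may not be separable. The summed H3K27ac over these markers was 83357 bp treated and 61830 bp untreated. Of 8 myeloid markers, 3 had H3K27ac in each list, summing to 2209 bp treated and 2809 bp untreated, and Cebpa, Elane, Itgam, Lyz2 and Mpo had none in either. The sums were 4759 bp treated and 2856 bp untreated over 5 B cell markers, 6581 bp and 4914 bp over 5 T cell markers, 18110 bp and 12067 bp over 5 megakaryocyte markers, and 2059 bp and 353 bp over 5 markers of stroma and endothelium. The part of these lineage differences in the values at transporter genes was not tested.

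Acetylation sat at a start site of every transporter gene for which RefSeq start sites were matched. Of 9 start sites of 7 genes, 8 lay inside an H3K27ac peak in the treated list and the same number in the untreated list. The exception in both lists was the outer of 2 Slc39a10 start sites, at 46925776 on chromosome 1, so that the gene's acetylation was at the inner site, 46853618. Over 21262 start sites of protein-coding genes, 42.8% lay in a treated and 40.8% in an untreated H3K27ac peak. Slc39a14 was not matched.

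The peak over the start was wider in the treated list at 4 genes and narrower at 3. At Slc30a10 it was 2003 bp treated and 1003 bp untreated. At Slc39a8 it was 3303 bp treated and 2353 bp untreated, and this peak holds both annotated starts of the gene. At Slc30a5 it was 1703 bp treated and 1253 bp untreated, with the same outer edge at -24 bp of the start in both lists, so the added length lay inside the gene. The start peaks of the other genes differed by 50 to 150 bp, which is 1 to 3 steps of the 50 bp grid on which the peak edges lie. Those were 1603 bp treated and 1553 bp untreated at Slc30a1, 2053 bp and 2203 bp at Slc30a7, 1553 bp and 1603 bp at Slc39a1, and 2553 bp and 2703 bp at the inner start of Slc39a10. The Slc30a7 peak also covers the edge of Extl2, 34 bp away, so it cannot be assigned to either gene.

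H3K4me1 split the genes by how it lay around the start. At Slc30a10, Slc39a1 and Slc39a8 an H3K4me1 peak ran across the acetylated start in both lists. At Slc30a1, Slc30a5, Slc30a7 and the inner start of Slc39a10 it stopped short on either side and left the start free in both lists. Counted by site, 4 of 8 acetylated starts carried H3K4me1 in each list, with the 2 sites of Slc39a8 in 1 peak. Over all acetylated starts of protein-coding genes the share was 30.8% treated and 24.4% untreated. The H3K4me1 peak over the Slc39a8 starts was 7103 bp wide in the treated list and 1853 bp in the untreated list, where a separate peak of 2903 bp followed it.

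**Figure D1:**
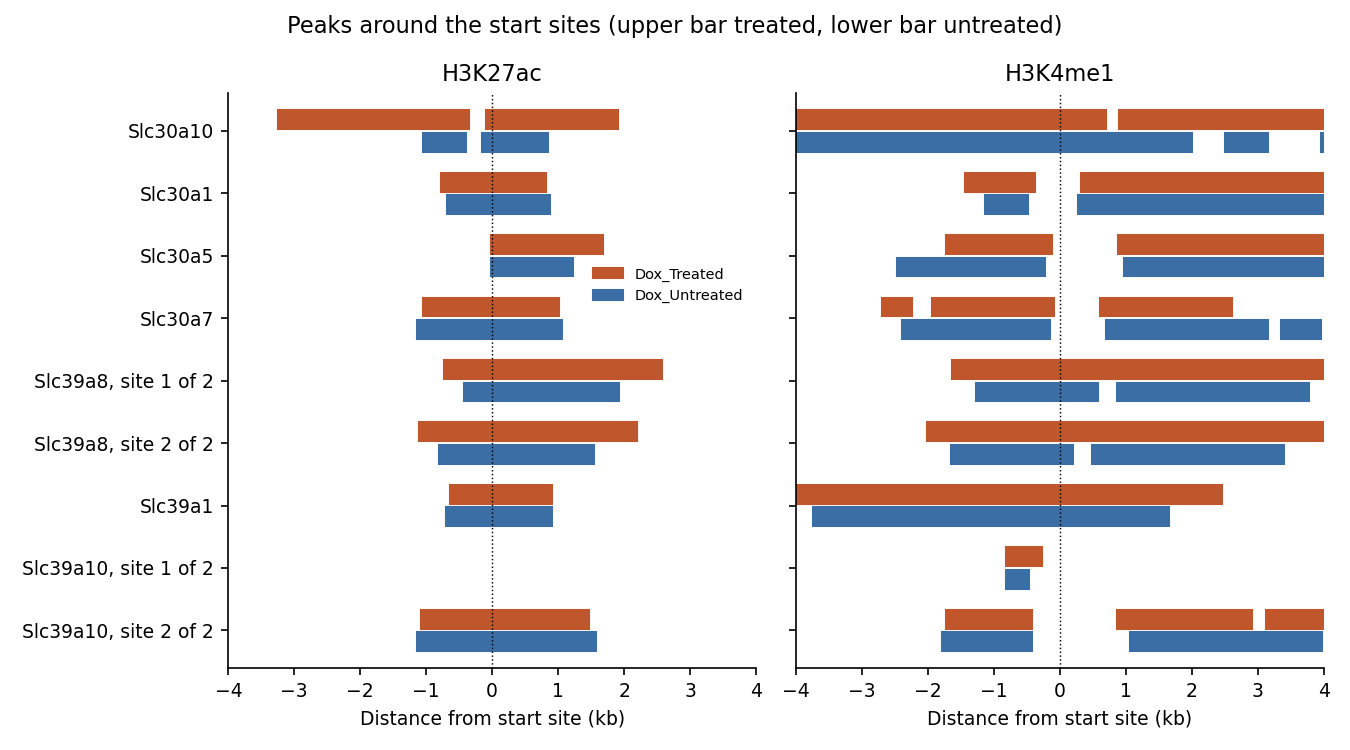
Peaks within 4 kb of each RefSeq start site, in kb in the direction of transcription, for H3K27ac on the left and H3K4me1 on the right; the upper bar of each pair is the treated and the lower bar the untreated list, and the dotted line is the start. H3K27ac covers 8 of 9 starts in both lists, and H3K4me1 covers the starts of Slc30a10, Slc39a8 and Slc39a1 and leaves those of the other genes free.

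The 250 bases before the start are shown for the 4 genes whose H3K27ac length differed most in ratio between the lists, since these starts lie under the peaks just described. The bases shown do not all lie under them. The start peak begins at -24 bp at Slc30a5 in both lists, and at -99 bp treated and -149 bp untreated at Slc30a10. At Slc30a1 and Slc39a8 it covers all 250 bases in both lists. They are RefSeq sequences on GRCm38.p6, the assembly of mm10, read 5′ to 3′ on the gene's strand, and for Slc39a8 the first of its starts is used. Capitals mark matches on either strand to GAGGAA, a core that SPI1 and other ETS factors bind, GATAA, the GATA core, TGCACNC or TGCGCNC, the core of the metal response element that the zinc sensor MTF1 binds, and CACCC, a core of Kruppel-like factors.
Slc30a10, chr1:185454598-185454847, plus strand: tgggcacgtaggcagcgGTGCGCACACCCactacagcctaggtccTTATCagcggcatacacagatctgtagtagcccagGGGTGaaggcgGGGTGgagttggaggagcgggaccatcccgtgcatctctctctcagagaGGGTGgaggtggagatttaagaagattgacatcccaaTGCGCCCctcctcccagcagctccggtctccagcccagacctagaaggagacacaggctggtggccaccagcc
Slc30a1, chr1:191906531-191906780, plus strand: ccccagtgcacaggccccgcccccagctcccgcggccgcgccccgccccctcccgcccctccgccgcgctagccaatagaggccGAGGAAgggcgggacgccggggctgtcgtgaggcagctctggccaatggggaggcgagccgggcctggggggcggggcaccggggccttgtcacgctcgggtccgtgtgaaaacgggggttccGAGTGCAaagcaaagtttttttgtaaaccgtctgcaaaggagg
Slc39a8, chr3:135825029-135825278, plus strand: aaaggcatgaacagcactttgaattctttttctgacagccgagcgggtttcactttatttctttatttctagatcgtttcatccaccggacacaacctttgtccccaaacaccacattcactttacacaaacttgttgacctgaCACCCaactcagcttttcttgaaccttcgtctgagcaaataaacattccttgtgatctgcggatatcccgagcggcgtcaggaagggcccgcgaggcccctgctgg
Slc30a5, chr13:100833428-100833677, minus strand: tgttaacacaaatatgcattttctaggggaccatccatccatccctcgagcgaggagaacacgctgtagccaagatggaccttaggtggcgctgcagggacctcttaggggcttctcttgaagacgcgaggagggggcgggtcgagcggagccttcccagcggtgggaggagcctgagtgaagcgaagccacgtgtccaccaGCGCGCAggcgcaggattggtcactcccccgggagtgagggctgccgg

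The window of Slc30a10 held 3 matches to TGCGCNC, 1 to GATAA and 4 to CACCC, and none to GAGGAA or TGCACNC. Its first 2 TGCGCNC matches overlap each other on opposite strands, and the first CACCC shares a base with the second of them. These matches and the GATAA match lie outside the H3K27ac peaks of both lists. So do the CACCC matches 170 to 166 and 159 to 155 bases before the start. The last CACCC match, 110 to 106 bases before it, lies in the untreated peak alone. Only the last TGCGCNC match, 73 to 67 bases before it, lies in the peaks of both lists. The window of Slc30a1 held 1 match to GAGGAA, 166 to 161 bases before the start, and 1 to TGCACNC on the opposite strand, 43 to 37 bases before it. Slc39a8 had 1 match to CACCC and Slc30a5 1 to TGCGCNC, the latter outside the H3K27ac peaks of both lists. At the second start of Slc39a8, the window held 1 match to GATAA and 1 to TGCACNC that overlaps 1 to CACCC. Of the genes not printed, Slc30a7 and the inner start of Slc39a10 held 2 matches to CACCC each, overlapping at Slc30a7, Slc39a1 held 1, and the outer start of Slc39a10 held 1 to GAGGAA and 1 to GATAA. Over the same window of 21262 start sites, 22.2% held GAGGAA, 20.5% GATAA, 10.3% TGCACNC, 15.8% TGCGCNC, 24.2% at least 1 of these metal response cores and 54.2% CACCC. A match is a run of letters and not a measured binding site.

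Summed over body and flanks, H3K27ac was longer in the treated list at 3 of the 8 genes and shorter at 5, and H3K4me1 was longer at 6 and shorter at 2. Among protein-coding genes with a peak of the mark, 46.7% were longer, 50.5% shorter and 2.82% equal in H3K27ac (12311 genes), and 60.7% longer, 38.7% shorter and 0.636% equal in H3K4me1 (16359 genes). The median treated minus untreated difference over the 8 genes was -150 bp in H3K27ac and 848.5 bp in H3K4me1, beside -9 bp and 391 bp over all genes with a peak. A difference was called where one list had at least 1.5 times the length of the other and at least 500 bp more. In H3K27ac, Slc30a10, Slc39a8 and Slc30a1 were called longer and Slc30a5 shorter, while 10.1% of all genes with a peak were called longer and 11.0% shorter. In H3K4me1, Slc39a8 alone was called longer and none shorter, against 10.5% and 6.79% of genes. With 8 genes chosen in view of these lists, the counts say nothing beyond themselves.

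**Figure D2:**
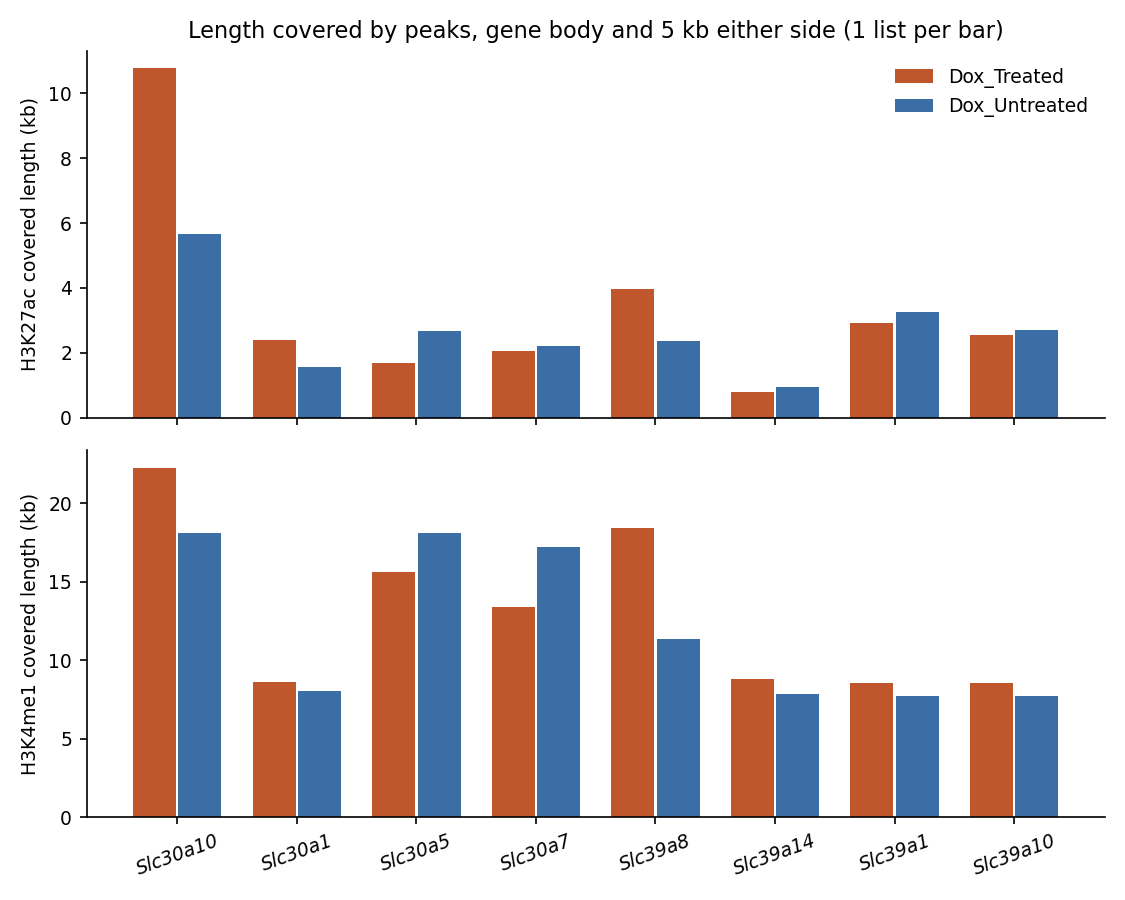
Length in kb covered by H3K27ac (top) and H3K4me1 (bottom) peaks in each gene body with 5 kb either side, treated list left and untreated list right, 1 list per bar and so no error bar. Slc30a10 has the most H3K27ac in both lists, 10770 bp treated and 5662 bp untreated.

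Slc30a10, the manganese exporter, had the longest H3K27ac coverage of the 8 genes. It covered 10770 bp in the treated list and 5662 bp in the untreated list, a ratio of 1.90. Of 12311 genes with H3K27ac, 118 (0.958%) had a treated minus untreated difference at least as high as its 5108 bp. That rank is by bp, and genes with more covered length, as here, can differ by more bp. H3K4me1 covered 22274 bp treated and 18074 bp untreated, which is 93.1% and 75.6% of the gene with its flanks (chromosome 1, 185454848 to 185468762). The gene is only 13.9 kb long, and its region was the one of the 8 most fully covered in both marks.

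The added acetylation at Slc30a10 lay at each place that was already acetylated. Upstream, the treated list had a peak of 2903 bp from -3249 to -347 bp of the start, and the untreated list one of 653 bp from -1049 to -397 bp. This stretch lies in the body of the lncRNA gene Gm2061, which overlaps the start of Slc30a10, so it may belong to either gene. Across the start itself the peak reached 1903 bp into the gene in the treated list and 853 bp in the untreated list. Past the far end of the gene, the treated list had a peak of 6853 bp, chr1:185467899-185474751, where the untreated list had peaks of 3503 bp and 503 bp separated by a short gap. That treated peak ran from -863 to 5989 bp of the annotated end. It ranked 331 by width of 23341 treated peaks, and the widest untreated peak there ranked 1913 of 28902. Within the gene and its 5 kb flanks, 5158 bp were acetylated in the treated list alone, 5612 bp in both lists and 50 bp in the untreated list alone. The part of the widest treated peak beyond 5 kb is not counted. No other annotated gene lies within 5 kb of the far end.

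H3K4me1 already spanned most of these places in the untreated list. A peak of 12353 bp treated and 11103 bp untreated covered the far end, and by the authors' score it ranked 749 of 101388 and 758 of 119362. Inside the gene, a treated peak of 6253 bp lay where the untreated list had peaks of 653 bp and 1653 bp and the inner edge of its peak over the start. All H3K27ac peaks of Slc30a10 lay wholly within H3K4me1 of the same list, except the treated peak over the start, of which 90.2% did. The treated list alone had a further H3K4me1 peak of 453 bp inside the gene. The 5 protein-coding genes whose 4 covered lengths were nearest to those of Slc30a10 were Elk4, Mknk1, Plekhg5, Cltrn and Mta1, with a largest difference over the 4 lists of 0.13 to 0.20 in log2 of bp plus 500.

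**Figure D3:**
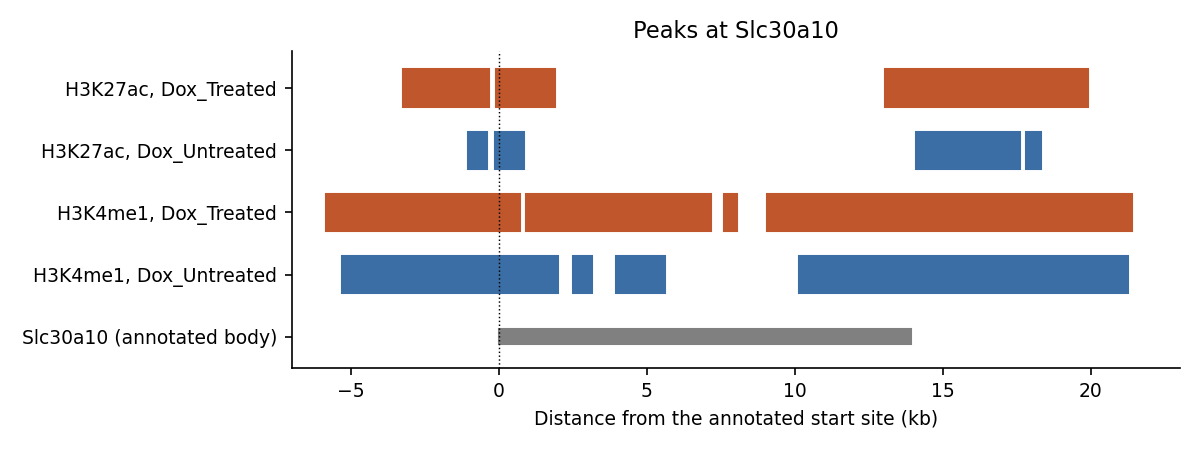
Peaks of the 4 lists at Slc30a10 by distance in kb from the start site (dotted line), treated above untreated for each mark, with the annotated gene body in grey. The treated H3K27ac peaks extend past the untreated ones at 3 places, and the widest, of 6853 bp, lies over and beyond the far end of the gene.

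Slc30a1, the zinc exporter of the cell surface and a known target of MTF1, had H3K27ac over 2409 bp in the treated list and 1553 bp in the untreated list (chromosome 1, 191906697 to 191913248). The ratio of 1.55 lies just above the limit of 1.5. The difference came from narrow peaks of 203 bp and 603 bp near the far end of the gene body, found in the treated list alone. With the widest 50% of each list it was 1603 bp treated and 1553 bp untreated, which ends the call. Both places lay inside an H3K4me1 peak in each list, of 6503 bp treated and 5953 bp untreated. H3K4me1 in total was 8612 bp treated and 8059 bp untreated, and the direction turned when peaks below the top 50% in score were left out, to 6503 bp treated and 7406 bp untreated. The start of this gene overlaps the lncRNA gene 1700034H15Rik.

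Slc30a5 and Slc30a7, loaders of the secretory pathway, had less H3K4me1 in the treated list, and Slc30a5 was also called shorter in H3K27ac. Slc30a6, a further gene of the family that encodes ZnT6, had more H3K4me1 in the treated list, 5062 bp against 4765 bp untreated. Its H3K27ac was 1753 bp treated and 2353 bp untreated. Slc30a5 encodes ZnT5, which works with ZnT6 to supply zinc to enzymes in the early secretory pathway. It had 1703 bp of H3K27ac treated and 2662 bp untreated, a ratio of 0.64, and 15615 bp of H3K4me1 treated and 18118 bp untreated (chromosome 13, 100802645 to 100833480). Inside the gene, peaks of 853 bp, 453 bp and 103 bp, between 8476 and 15328 bp from the start, were in the untreated list alone, as was an H3K4me1 peak of 353 bp. The start peak was wider in the treated list, so the sign depends on what is counted: over windows at both gene ends, without the rest of the body, Slc30a5 had 1703 bp treated and 1253 bp untreated, and the widest 50% of each list gave the same values. With flanks of 20 kb it was 4106 bp treated and 4865 bp untreated, which ends the call. Slc30a7 encodes ZnT7, a zinc carrier of the Golgi (chromosome 3, 115938973 to 116007414). Its H3K27ac of 2053 bp treated and 2203 bp untreated was the start peak shared with Extl2. Its H3K4me1 was 13380 bp treated and 17189 bp untreated, over 10 and 13 peaks. Of the untreated peaks 4 had no treated counterpart, between 203 and 1003 bp wide, and no treated peak lacked an untreated one. Of 16359 genes with H3K4me1, 3.29% had a difference at least as low as the -3809 bp of Slc30a7, and 6.49% one at least as low as the -2503 bp of Slc30a5. These ranks are by bp, and genes with more covered length can differ by more bp. In ratio, the H3K4me1 of neither gene was called, at 0.78 for Slc30a7 and 0.86 for Slc30a5.

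Slc39a8, or ZIP8, imports zinc and manganese and differed upward in both marks. H3K27ac covered 3956 bp treated and 2353 bp untreated, a ratio of 1.68, and H3K4me1 18427 bp treated and 11371 bp untreated, a ratio of 1.62 (chromosome 3, 135816882 to 135888572). Of genes with a peak, 7.51% had an H3K27ac difference at least as high as 1603 bp and 2.49% an H3K4me1 difference at least as high as 7056 bp. Both ranks are again by bp and not by ratio. Besides the wider start peak, the treated list alone had an H3K27ac peak of 653 bp, chr3:135843399-135844051, 18120 to 18772 bp past the first start. It lay inside an H3K4me1 peak of 4253 bp treated and 3703 bp untreated, and also past the lncRNA gene 4933401H06Rik, whose body overlaps Slc39a8. In H3K4me1, 4 treated peaks of 453 to 1503 bp had no untreated counterpart and 1 untreated peak of 503 bp had no treated one. The annotated body starts upstream of both start sites, so windows at the gene ends alone hold no H3K27ac of this gene in either list. With the better 50% of each list, neither mark kept the call, at 3303 bp treated and 2353 bp untreated in H3K27ac and 14762 bp and 10112 bp in H3K4me1.

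**Figure D4:**
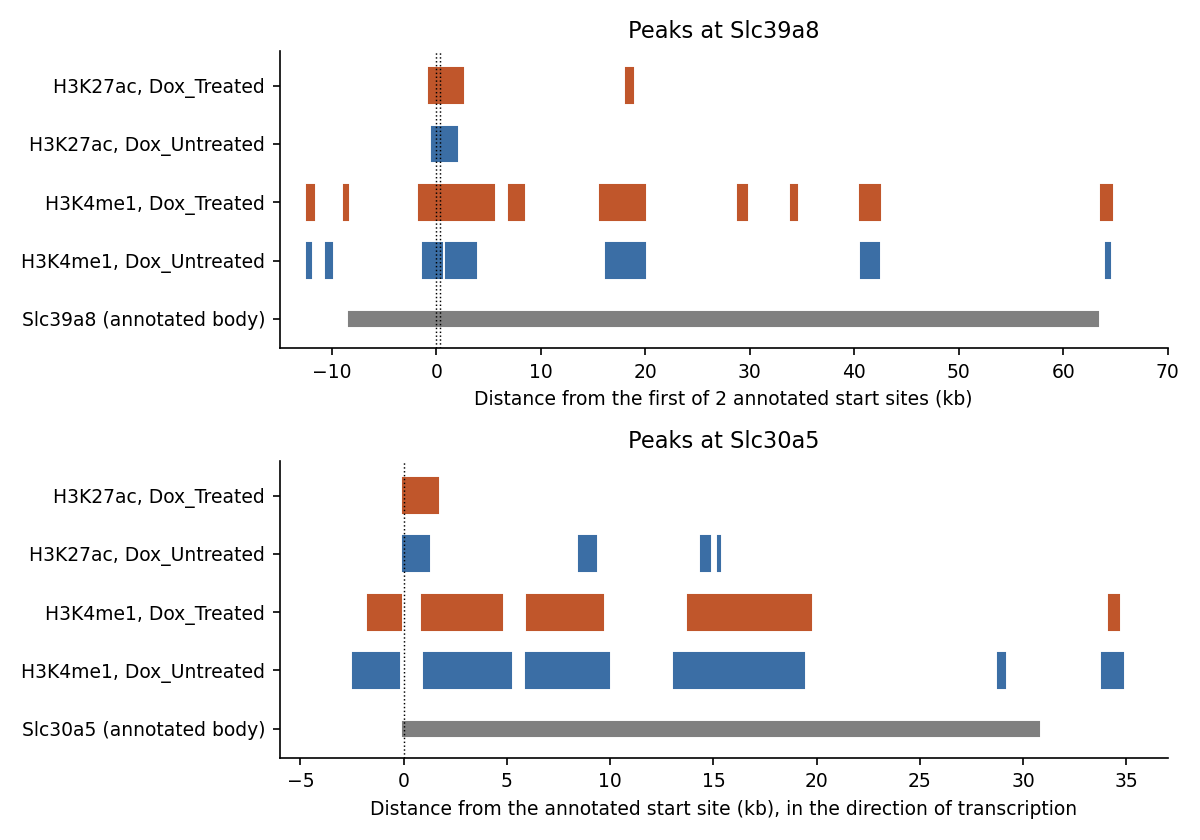
Peaks of the 4 lists at Slc39a8 (top) and Slc30a5 (bottom) by distance in kb from the start, treated above untreated for each mark, gene bodies in grey and start sites dotted. Slc39a8 has an H3K27ac peak of 653 bp in the treated list alone, inside an H3K4me1 peak present in both lists, and at Slc30a5 3 H3K27ac peaks are in the untreated list alone while H3K4me1 lies there in both.

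None of the other importers was called in H3K27ac with all peaks of the lists. Slc39a14, or ZIP14, carries manganese, zinc and iron and had 803 bp of H3K27ac treated and 953 bp untreated, in 1 peak per list at its end of higher coordinate (chromosome 14, 70303467 to 70351452). This was the least of the 8 genes in both lists, and its H3K4me1 was 8821 bp treated and 7824 bp untreated. With the better 50% of each list that direction turned too, to 5759 bp treated and 6012 bp untreated, and no H3K27ac peak of the gene was left in either list. An H3K4me1 peak of 653 bp was in the treated list alone and peaks of 403 bp and 303 bp in the untreated list alone. Slc39a1, or ZIP1, a zinc importer of the cell surface, had H3K27ac over 2906 bp treated and 3256 bp untreated, and H3K4me1 over 8559 bp and 7709 bp (chromosome 3, 90248190 to 90253613). Its second acetylated peak, 1353 bp treated and 1653 bp untreated, lies past its end, at Crtc2, which begins 244 bp away. The treated peak lies wholly in the body of Crtc2, and the untreated one starts just before Crtc2 and runs into it. This peak therefore cannot be assigned to Slc39a1. With the widest 50% of each list Slc39a1 had 1553 bp treated and 3256 bp untreated and was called shorter, because the treated peak there was dropped; its 1353 bp equal the median of that list, where peaks of tied width were kept by position. Slc39a10, or ZIP10, another surface zinc importer, had H3K27ac over 2553 bp treated and 2703 bp untreated, and H3K4me1 over 8577 bp and 7730 bp (chromosome 1, 46807544 to 46925776). Its H3K4me1 peaks changed place more than their sum shows, since only 45.1% of the length covered in either list was covered in both, the lowest share of the 8 genes in that mark. There 3 treated peaks of 653 to 803 bp and 4 untreated peaks of 303 to 553 bp lacked a counterpart.

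**Figure D5:**
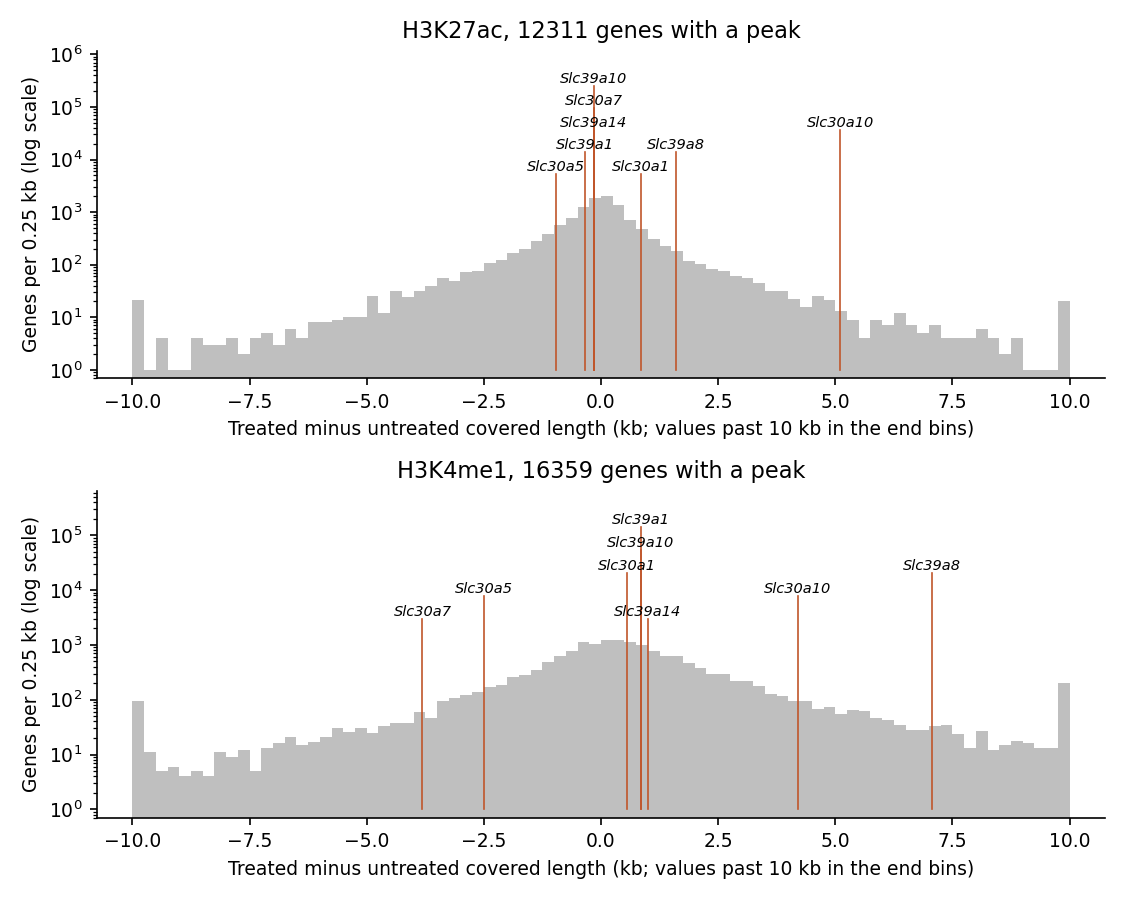
Number of protein-coding genes by treated minus untreated covered length in kb, on a log scale, for H3K27ac (top) and H3K4me1 (bottom), with the 8 transporter genes as lines whose heights only separate the names. Slc30a10 stands at 5108 bp in H3K27ac and Slc39a8 at 7056 bp in H3K4me1, and both have genes beyond them.

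Acetylation present in 1 list alone lay on H3K4me1 present in both. The treated list had 3 such H3K27ac peaks at the transporter genes, at Slc30a1 and Slc39a8, and the untreated list 3, at Slc30a5. All 6 overlapped H3K4me1 in the treated and the untreated list, as did 94.1% of the 3983 treated-only and 95.9% of the 7928 untreated-only H3K27ac peaks of the genome. Of the transporter genes' H3K27ac peaks, 11 of 14 treated (78.6%, 95% exact Clopper-Pearson interval 49.2 to 95.3%) and 12 of 15 untreated (80.0%, 51.9 to 95.7%) overlapped the other list by at least 1 bp. Over the whole lists these shares were 82.9% and 72.6%. For H3K4me1 they were 42 of 51 treated (82.4%, 69.1 to 91.6%) and 42 of 54 untreated (77.8%, 64.4 to 88.0%), with 79.2% and 73.3% over the whole lists. The intervals cover counting over peaks only, and peaks of 1 gene are not independent.

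A list of 37 further genes of the same families and of metal handling gives the surroundings. Over all genes with H3K27ac, 46.7% were longer and 50.5% shorter in the treated list, with a median difference of -9 bp. Of those genes 10.1% were called longer and 11.0% shorter. H3K27ac was present at 27 of the 37 genes, with 14 longer, 12 shorter and 1 equal in the treated list, a median difference of 50 bp, 4 called longer and 1 called shorter. The largest differences upward were at Slc31a1, the copper importer, with 10562 bp treated and 4174 bp untreated, at Slc11a2, the iron and manganese importer DMT1, with 10912 bp and 7165 bp, and at Mtf1, the zinc sensor, with 10362 bp and 8524 bp. Mtf1 was not called. The other called genes were Slc39a13, with 3509 bp treated and 1753 bp untreated, Atp7a, a copper pump, with 3612 bp and 2359 bp, and in the other direction Atp2c2, with 420 bp and 1023 bp. Slc39a13 is a neighbour of Spi1 on chromosome 2. The largest differences downward were at the metallothionein genes Mt1, with 4725 bp treated and 6681 bp untreated, and Mt2, with 6025 bp and 7178 bp, whose regions overlap, and at Atp13a1, with 4356 bp and 5156 bp. None of these 3 was called.

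In H3K4me1, 36 of the 37 genes had a peak, 25 longer and 11 shorter in the treated list, with a median difference of 825 bp, 2 called longer and 1 called shorter. Over all genes with H3K4me1, 60.7% were longer and 38.7% shorter, with a median difference of 391 bp. Of those genes 10.5% were called longer and 6.79% shorter. Slc31a1 had 33733 bp treated and 26001 bp untreated, and Slc11a2 30018 bp and 25121 bp. Slc30a8, the zinc transporter of insulin granules, had 6471 bp treated and 2509 bp untreated with no H3K27ac in either list, and it was called, as was Slc39a6, with 7559 bp and 4659 bp. The largest differences downward were at Atp7a, with 38944 bp treated and 46071 bp untreated, Atp2c1, a manganese and calcium pump of the Golgi, with 23527 bp and 25701 bp, and Slc30a3, with 7462 bp and 9615 bp. The gene called shorter was Slc31a2, with 503 bp treated and 2365 bp untreated. The marks differed in opposite directions at Atp7a and at several further genes, among them Atp2c1, Atp2c2, Mt1, Mt2 and Atp13a1. Of the 8 transporter genes, they did so at Slc39a14, Slc39a1 and Slc39a10. The H3K27ac differences of these genes were small, at -150 bp, -350 bp and -150 bp, and none was called in either mark. The H3K4me1 difference of Slc39a14 also turned negative, to -253 bp, under 1 of the alternatives given below. How many of all genes had marks that differed in opposite directions was not counted, so this says nothing beyond the genes named.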

How the data were processed

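Of 24 samples in the series, the peak lists of 4 were used: H3K27ac and H3K4me1, each Dox_Treated and Dox_Untreated. Per the submitters' processing notes, the authors used bcl2fastq 2.17.1.14, BWA and mm10. How peaks were called, and how the H3K27ac replicates were joined, is not stated in the labels. The labels speak of 3 replicates for each condition, and the titles number at most 2. The deposited H3K4me1 lists give the authors' score per peak, of unstated scale, used to rank peaks within a list. Other value columns of the deposited lists, of unstated meaning, were not used.

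The members, the gene lists, the rule for named genes, peaks and motifs, and the alternatives were chosen with earlier results of these data known. All 8 genes and all 37 further genes are in the RefSeq gene table (GRCm38.p6), which gives no exons; the start sites and sequences come from RefSeq promoter entries on the same assembly, matched for 7 of the 8 genes. Starts and ends were taken as 1-based, both inclusive. Peaks on assembled chromosomes were kept, and covered bp were summed per gene, over its body and 5 kb either side, with Python 3.11.15, numpy 2.4.6 and pandas 2.3.3. The rule names all 8 genes with the widest peak, the start peak and the peaks of 1 list alone, the 3 further genes that differed most upward and downward per mark, and the 5 genes most like Slc30a10. Slc30a6 and further genes named only because they were called were chosen after their values were seen. The calculation was tested on simulated data and checked against bedtools 2.31.1. Intervals are exact (scipy 1.17.1), and figures were drawn with matplotlib 3.10.9. Covered length moves with how much a caller reports, which depth changes, so it is not signal height.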

Additional observations from a re-analysis of the deposited data

How the results depend on the processing

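Covered lengths were recomputed under 8 alternatives: windows at the gene ends alone, flanks of 2 kb and 20 kb, peaks of at least 200 bp, equal peak numbers, the better 50% of each list, peaks within 1 kb merged, and treated lengths scaled to the untreated total. Slc30a10 was longer in the treated list in both marks under each of them, by 3051 to 6264 bp in H3K27ac and 2197 to 8706 bp in H3K4me1. Its H3K27ac call held under each. Since H3K27ac peaks were ranked by width, equal peak numbers and the better 50% keep the widest peaks. These 2 alternatives could therefore not remove the wide treated peaks of Slc30a10. Slc30a5 reversed in H3K27ac, to 450 bp, with windows at the gene ends and with the better 50%. With the better 50%, H3K4me1 also turned at Slc30a1, to -903 bp, and at Slc39a14, to -253 bp, and Slc39a1 was called shorter in H3K27ac, by -1703 bp. The number of genes with shorter H3K27ac was 3 under both of these, with median differences of 0 bp and 25 bp. In H3K4me1, the better 50% gave 4 shorter genes and a median of 50 bp, flanks of 20 kb a median of 1437 bp, and scaling one of 347 bp. A reciprocal overlap of 50% left 58.8% of treated and 55.6% of untreated H3K4me1 peaks shared, and the better 50% left 92.3% of the treated. The other 57 values of counts, medians and shares stayed within 1.5 times the reported one or within its interval. Among them were the H3K27ac shares under reciprocal overlap, which fell to 64.3% of 14 treated and 60% of 15 untreated peaks. They stayed inside intervals that are wide with so few peaks. The cause of the differences was not tested. No paired analysis was possible because each group has 1 list, and for the same reason no replicate could be left out. Unknown depth limits all lengths.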
